A study of Homo sapiens with 18 samples.

Results

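RREB1, MINK1, RNF24, FAM110C, OLFML2A and SERPINB9 are 6 of the 38055 genes in the whole transcriptome table. They come from a published selection of candidate targets of the miRNA-induced silencing complex (miRISC), and were chosen by measured RNA levels of these cells. That selection kept genes with AGO2 bound to their 3′UTR at matches to abundant miRNA families and with more RNA in dense than in sparse cells. Its dense cells were grown to a higher density than the dense RNAseq libraries analysed here. The 6 are the labelled candidates that were not grouped under a named pathway when they were chosen here. The paper does link some enriched pathways to OLFML2A. The other 13 labelled genes were used only as a range. Because higher RNA in dense cells was a condition of the selection, the difference of these genes between days is a description here and carries no test.

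The RNA came from wild-type HCT116 cells, a line derived from a colorectal carcinoma and labelled epithelial, with no treatment on any day. Cells were grown in flat culture for 3 days to 50% confluency, for 5 days to 250% confluency and for 7 days to 400% confluency by the labels. RNAseq values of day 3 and day 5 were analysed, with 3 biological replicates each, and mature miRNAs were analysed on all 3 days, with 3 replicates each. The paper's selection compared RNA at 400% with RNA at 50% confluency, so its dense cells were those of day 7. The day 5 differences given here are therefore not the contrast that defined the candidates, although both start from day 3. Day and density changed together, so time in culture and crowding cannot be told apart. RNAseq libraries held between 27470978 and 56689369 reads in genes. All 6 epithelial markers listed (EPCAM, CDH1, KRT8, KRT18, KRT19 and CLDN4) were present. The 4 leukocyte markers summed to at most 14.2 normalized reads in any library. In bulk RNA, a change in how many cells express a gene and a change in RNA per cell cannot be told apart.

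A miRNA guides an Argonaute protein such as AGO2 to mRNAs by pairing its seed, bases 2 to 8 from its 5′ end, with a site that usually lies in the 3′UTR. The bound complex recruits TNRC6 proteins, and the mRNA is then destabilised or translated less. The 6 genes have unrelated roles. RREB1 is a zinc finger transcription factor that acts with RAS and SMAD signalling, MINK1 is a kinase of the MAP4K family, and RNF24 is a RING finger membrane protein. FAM110C is a protein linked to the centrosome and microtubules, OLFML2A is a secreted olfactomedin domain protein, and SERPINB9 inhibits granzyme B, the protease with which cytotoxic lymphocytes kill.

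The mature sequences of the miRNAs whose families matched at least 3 of the 6 genes, or which are named with a site printed here, are given first, from RefSeq on GRCh38.p14, 5′ to 3′, with the seed in capitals.
miR-181a-5p: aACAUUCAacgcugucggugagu
miR-16-5p: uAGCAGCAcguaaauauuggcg
miR-27b-3p: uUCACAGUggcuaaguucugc
miR-27a-3p: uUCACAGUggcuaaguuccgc
miR-93-5p: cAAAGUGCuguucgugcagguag
miR-103a-3p: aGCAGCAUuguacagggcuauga
miR-125a-5p: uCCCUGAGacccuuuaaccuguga
miR-10a-5p: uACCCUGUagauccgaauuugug
miR-27a-3p and miR-27b-3p share 1 seed and so count as 1 family. The paper's text names miR-27a-3p and miR-181a-5p for IGF1R, NOTCH3 and OLFML2A as a group. Gene by gene, it places them in IGF1R and NOTCH3 and in none of these 6 genes. The matches were therefore searched for in the annotated 3′UTRs, and AGO2 binding itself was not analysed here.

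A match is called an 8mer where the 3′UTR pairs with bases 2 to 8 and has an A opposite base 1. It is a 7mer-m8 without that A, and a 7mer-A1 where the A is present but base 8 is unpaired. The miR-181 family was the family that matched all 6 genes, and 1 site per gene is given with the match in capitals, on GRCh38 and on the strand of the gene. The 8mer is that of MINK1.
MINK1, chr17:4897684-4897691, 8mer: tcccccctTGAATGTAccagaccc
RNF24, chr20:3931719-3931725, 7mer-m8: agcacatgTGAATGTggactggt
OLFML2A, chr9:124813439-124813445, 7mer-m8: ctgtatccTGAATGTcctcattt
SERPINB9, chr6:2888387-2888393, 7mer-m8: tgctgctaTGAATGTttgtgtac
RREB1, chr6:7250485-7250491, 7mer-A1: agggaggaGAATGTAccccactg
FAM110C, chr2:40775-40781, 7mer-A1: actatttaGAATGTActccatgg
RNF24 had a further 7mer-m8 of this family, so the 6 genes held 7 miR-181 sites. The miR-16 family matched 5 genes, all but OLFML2A, and its 8mers lay in RREB1, FAM110C and SERPINB9.
RREB1, chr6:7251799-7251806, 8mer: ttaaaaacTGCTGCTAcatgttat
FAM110C, chr2:39928-39935, 8mer: tctaaaaaTGCTGCTAttttgctg
SERPINB9, chr6:2888394-2888401, 8mer: gggaatagTGCTGCTAtgaatgtt
The miR-27 family matched 4 genes, RREB1, FAM110C, RNF24 and OLFML2A, with an 8mer in RREB1 and in RNF24.
RREB1, chr6:7251313-7251320, 8mer: aatattaaACTGTGAAatttgtga
RNF24, chr20:3933233-3933240, 8mer: agggagccACTGTGAAcctctcga

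RREB1 lies at chr6:7107597-7251980 on the plus strand, with 13 exons in its canonical transcript and a 3′UTR of 3012 bases. Its normalized read counts were 1770.0, 1743 and 1861 on day 3 and 5947, 6449 and 6336 on day 5. Every day 5 library was above every day 3 library, and the lowest day 5 value was 3.20 times the highest day 3 value. The mean was 3.49-fold higher on day 5, a log2 fold change of 1.80 ± 0.08 (SE, 3 libraries a day, limma on log2(value + 1)), which ranked 380 among 20129 genes tested.

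MINK1 lies at chr17:4833340-4898061 on the plus strand, with 32 exons and the shortest 3′UTR of the 6, at 774 bases. Its normalized read counts were 1588, 1701 and 1714 on day 3 and 4162, 4064 and 4162 on day 5. Among the 6 genes, the day 5 libraries of MINK1 were the most alike of any gene and day, with a coefficient of variation of 1.37%. The difference was the smallest of the 6, at 2.48-fold and a log2 fold change of 1.31 ± 0.07. The annotated gene CHRNE, which encodes a subunit of the muscle acetylcholine receptor, overlaps the 3′ end of MINK1 on the opposite strand. It was below the filter on low values, and counting used strand by the study's methods.

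RNF24 lies at chr20:3927309-4015558 on the minus strand, with 6 exons and the longest 3′UTR of the 6, at 6752 bases. RNF24 had 239, 244 and 251 normalized reads on day 3 and 1112, 1219 and 1422 on day 5. The day 3 libraries lay close together, while day 5 had the widest spread of the 6 genes, with a coefficient of variation of 12.6%. The mean was 5.12-fold higher on day 5, the largest difference of the 6, with a log2 fold change of 2.34 ± 0.11 (SE) and rank 133.

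FAM110C lies at chr2:38814-46870 on the minus strand, with 2 exons and a 3′UTR of 2794 bases. FAM110C had 391, 372 and 399.8 normalized reads on day 3 and 1559.5, 1715 and 1841 on day 5. The groups did not overlap, and the lowest day 5 value was 3.90 times the highest of day 3. The mean was 4.40-fold higher on day 5, with a log2 fold change of 2.13 ± 0.09.

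OLFML2A lies at chr9:124777133-124814885 on the plus strand, with 8 exons and a 3′UTR of 4470 bases. OLFML2A had 129, 144 and 164 normalized reads on day 3 and 703, 663 and 697 on day 5. It was the lowest of the 6 genes on both days. The day 3 values rest on 147, 233 and 116 reads, so counting error alone is 9.28% for the smallest of them, beside a coefficient of variation of 12.2%. The mean was 4.72-fold higher on day 5, with a log2 fold change of 2.24 ± 0.11. The paper followed OLFML2A further, at a higher density than that of day 5. From exon and intron reads it reports a rise mainly after transcription, and it reports a longer RNA half-life in the cytoplasm. It also reports more OLFML2A RNA in cells with AGO2 directed to the nucleus.

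SERPINB9 lies at chr6:2887270-2903309 on the minus strand, with 7 exons and a 3′UTR of 2893 bases. Its normalized read counts were 1092, 1189 and 1128 on day 3 and 2902, 3194 and 3139 on day 5. No library of either day reached the range of the other. The mean was 2.71-fold higher on day 5, with a log2 fold change of 1.44 ± 0.08.

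**Figure D1:**
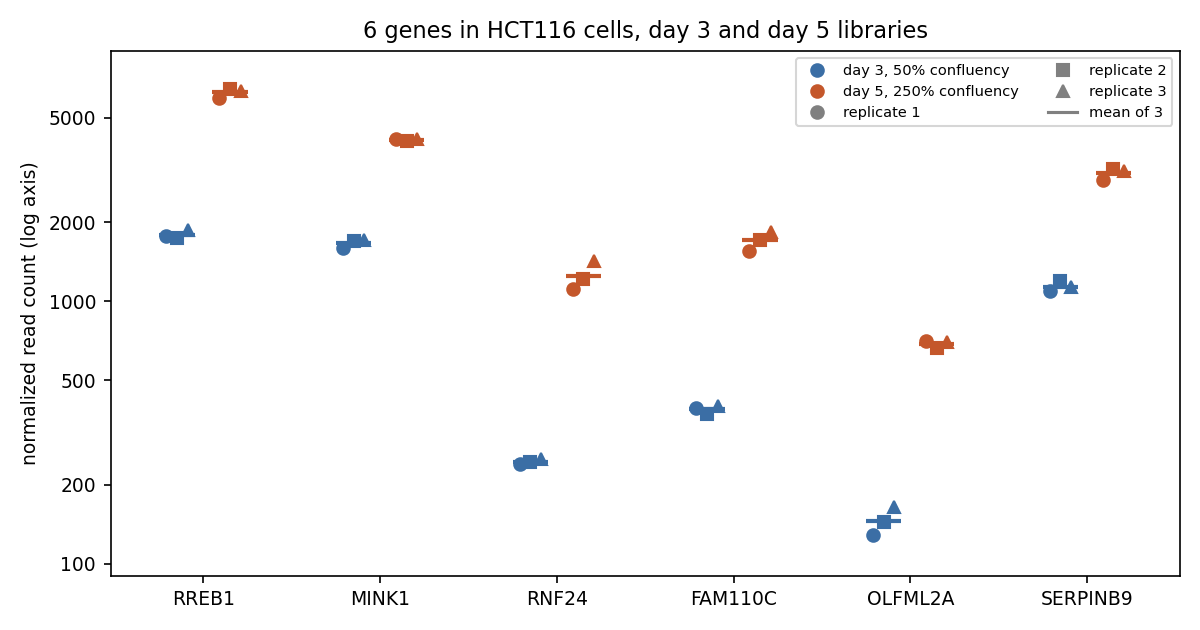
Normalized read counts (log axis) of the 6 genes in each library of day 3 (blue) and day 5 (orange), with marker shapes for replicates and lines for the mean of 3. Every day 5 point lies above every day 3 point of the same gene, from a 2.48-fold difference of means for MINK1 to 5.12-fold for RNF24.

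For all 6 genes the libraries of day 5 lay above those of day 3, a pattern that 33.4% of all genes tested showed in this direction. More than 2-fold higher expression was seen for 6 of 6, against 10.7% of all genes. Neither count is evidence for these genes, since they were selected for higher RNA in dense cells. For the 6 and the other labelled candidates, that selection used a density above that of day 5. Their median log2 fold change was 1.97, beside 0.01 over all genes tested and 1.81 over the other 13 labelled candidates, which ranged from 1.23 for ZFP36 to 3.22 for PRDM1. Markers of cell state moved between the same libraries. The 6 epithelial markers summed to between 37951 and 56447 normalized reads on day 3 and between 105564 and 106070 on day 5, with 5 of 6 higher, and the 4 fibroblast markers with values to between 513 and 594 and between 1114 and 1181, nearly all of it COL1A1, with DCN at 0 in 5 of 6 libraries. Their part in the difference of the 6 genes was not tested. Among the 6, the values of RNF24, OLFML2A and FAM110C differed by no more than 0.11 between neighbours in the order, less than the combined SE of 0.15 and 0.14. FAM110C exceeded RREB1 by 0.33 with a combined SE of 0.12, and RREB1 exceeded SERPINB9 by 0.36 with a combined SE of 0.11. SERPINB9 and MINK1 differed by 0.13, close to the combined SE of 0.11. The combined SE treats the genes of a pair as independent, although both were measured in the same libraries. Differences between the 6 genes were not tested.

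Levels between genes were compared per kilobase of exon, as normalized reads per kilobase. On day 3 SERPINB9 was the highest at 274, followed by MINK1 at 212, RREB1 at 104, FAM110C at 94.8, RNF24 at 32.0 and OLFML2A at 21.5. On day 5 the levels were 743 for SERPINB9, 525 for MINK1, 417 for FAM110C, 362 for RREB1, 164 for RNF24 and 102 for OLFML2A. FAM110C and RREB1 thus changed places, and the other positions were the same on both days. Among the genes tested that had an exon length, 20.9% lay below OLFML2A on day 3 and 49.2% on day 5, while SERPINB9 went from 73.7% to 91.0%.

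Relatives and partners of each gene were then tested, which the selection had not used. Of 45 such genes with values, 34 passed the filter on low values, and of these 21 rose and 2 fell from day 3 to day 5 (limma, Benjamini-Hochberg adjusted p under 0.05). Of all genes tested 56.9% passed, 29.3% as higher and 27.6% as lower. Their median log2 fold change was 0.50. These lists were drawn up with earlier results of the data known.

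Of 15 genes of RAS, MAPK, SMAD and CtBP signalling, with which RREB1 works, 9 rose and 1 fell. SMAD3, a receptor-activated SMAD of TGF-β signalling, had normalized read counts of 2496, 2685 and 2556 on day 3 and 5761, 5622 and 6205 on day 5, a difference of 1.18 ± 0.08 on the log2 scale (limma adjusted p = 0.000222). All its day 5 libraries were above those of day 3. MAPK3, the kinase ERK1, rose by 0.77 ± 0.15, MAP2K1, the kinase MEK1 that activates it, by 0.71 ± 0.10, and the corepressors CTBP1 and CTBP2 by 0.54 ± 0.12 and 0.46 ± 0.10 on the log2 scale. NRAS, a RAS GTPase, had 7626, 8041 and 7169 normalized reads on day 3 and 4411, 4468 and 4791 on day 5, and it fell by 0.74 ± 0.08 on the log2 scale (limma adjusted p = 0.000747).

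A close relative of MINK1, the kinase TNIK, had 1793, 1888 and 1989 normalized reads on day 3 and 4248, 4534 and 4684 on day 5. Its log2 fold change was 1.25 ± 0.08, and the test of its difference from MINK1 was not run. Of 6 MAP4K kinases tested, 3 rose and none fell. Besides TNIK these were MAP4K2, by 0.71 ± 0.13, and MAP4K4, by 0.61 ± 0.11 on the log2 scale. MAP4K1, the blood cell member of the family, had 90.4, 50.1 and 97.8 normalized reads on day 3 and 52.1, 45.0 and 42.5 on day 5, and was not called at −0.71 ± 0.26 (limma adjusted p = 0.0621). edgeR and DESeq2 called it lower, with adjusted p = 0.0178 and adjusted p = 0.0298, as did limma without replicate 2 of day 3 (adjusted p = 0.00309).

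RNF122, a close relative of RNF24, was also higher in every dense library. Its normalized read counts were 91.3, 79.7 and 82.2 on day 3 and 267, 272 and 305 on day 5, 1.73 ± 0.10 higher on the log2 scale (limma adjusted p = 0.000172). TRPC1, a cation channel that RNF24 binds, was not called at 0.30 ± 0.15 (limma adjusted p = 0.145).

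Both relatives of FAM110C that passed the filter rose. FAM110A went from 151, 162 and 201 normalized reads to 329, 326 and 346, a log2 fold change of 0.97 ± 0.12. FAM110D was near the filter, with 4.39 to 5.56 normalized reads on day 3 and 12.9 to 16.6 on day 5, and its 1.50 ± 0.14 on the log2(value + 1) scale understates the ratio of such low values.

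All 4 olfactomedin domain genes tested rose, and 3 of them changed by more than 1 on the log2 scale. OLFM2, a secreted olfactomedin, went from 141, 167 and 152 normalized reads to 467, 471 and 462, 1.61 ± 0.09 higher on the log2 scale (limma adjusted p = 0.000172). OLFM1 rose by 1.31 ± 0.24, OLFML2B, the closest relative of OLFML2A, by 1.26 ± 0.21, and GLDN, gliomedin, by 0.57 ± 0.07. OLFML2B was low, at 25.5 to 39.7 normalized reads on day 3 and 71.6 to 98.4 on day 5.

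Of 4 clade B serpins tested beside SERPINB9, 2 rose and 1 fell. SERPINB1, an inhibitor of neutrophil proteases, had 1573, 1591 and 1688 normalized reads on day 3 and 3053, 3455 and 3443 on day 5, a log2 fold change of 1.03 ± 0.09. SERPINB6 rose by 0.39 ± 0.09. SERPINB8, at 0.27 ± 0.13, was not called (limma adjusted p = 0.128), but was called higher without replicate 3 of day 3 (adjusted p = 0.00820) and on library totals (adjusted p = 0.0239). SERPINB5, the tumour suppressor maspin, fell by 0.43 ± 0.12 on the log2 scale (limma adjusted p = 0.0236), and this call was lost with any of 3 libraries left out, at adjusted p = 0.0540 without replicate 3 of day 3, adjusted p = 0.0724 without replicate 1 of day 5 and adjusted p = 0.0748 without replicate 2 of day 5. GZMB, the target protease of SERPINB9, was not analysed here.

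**Figure D2:**
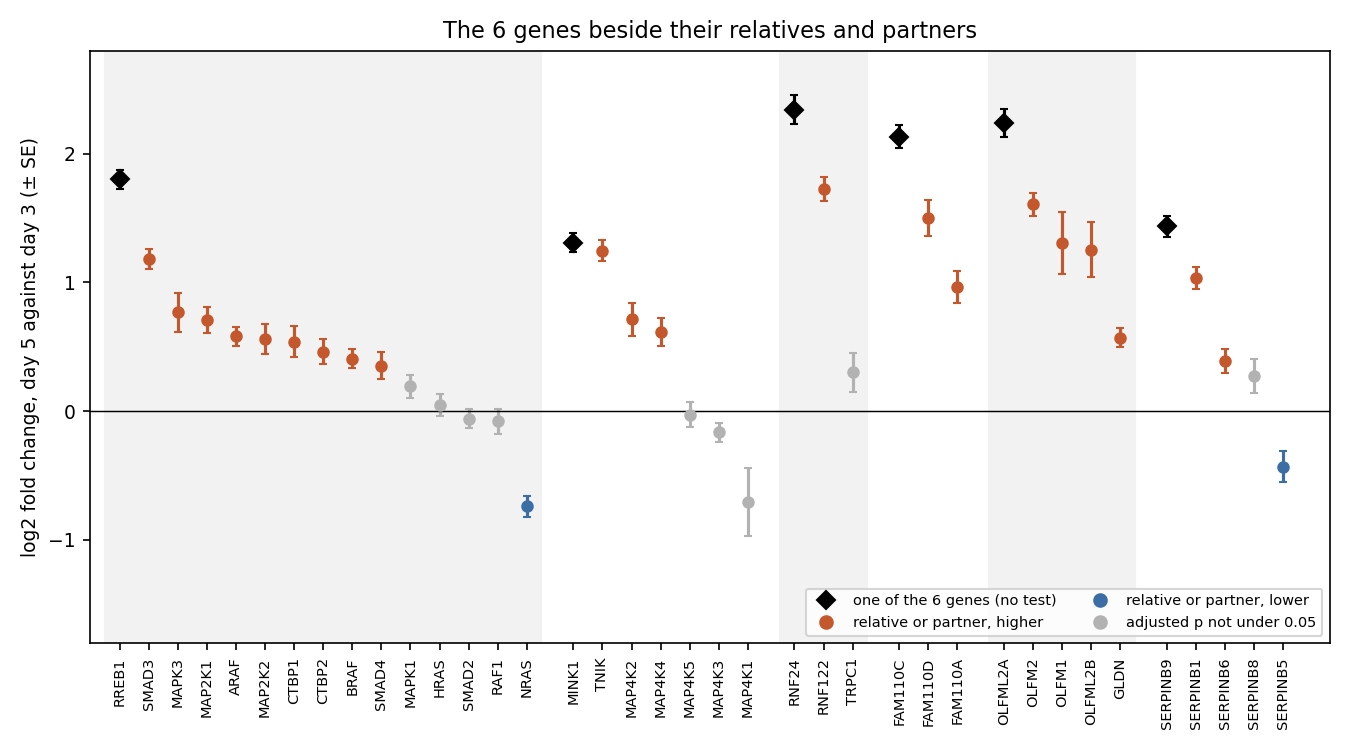
Log2 fold change (day 5 against day 3, ± SE, limma) of the 6 genes (black diamonds, no test) and of tested relatives and partners of each (circles, orange for higher, blue for lower, grey for not past an adjusted p of 0.05). In every block the gene of the 6 has the highest point, with TNIK the closest to it, at 1.25 beside 1.31 for MINK1, a difference not tested. The 6 were selected for higher RNA in dense cells and the others were not, so this order is only a description.

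The genes within 100 kb were tested next, to see whether the difference was shared along the chromosome. Of 36 neighbours tested, 15 rose and 9 fell, beside 29.3% and 27.6% of all genes, with a median log2 fold change of 0.16. FAM110C, which lies near the end of the short arm of chromosome 2, had no annotated neighbour in this window.

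The region of SERPINB9 had 4 of 5 tested neighbours higher. SERPINB1 and SERPINB6, already given, lie 45311 and 44850 bases away, and the noncoding SERPINB9P1 rose by 1.37 ± 0.37 from a low level of 16.9 ± 9.79 to 41.5 ± 5.47 normalized reads (SD, n = 3). The call of SERPINB9P1 was lost with either of 2 day 5 libraries or replicate 3 of day 3 left out, with adjusted p between 0.0504 and 0.0608. NQO2, a quinone reductase, fell by 0.52 ± 0.12 on the log2 scale. At RREB1, an unnamed noncoding RNA, ENSG00000225092, is annotated at chr6:7183083-7185287 inside the gene and on its strand. It rose by 1.08 ± 0.14, and reads of RREB1 pre-mRNA and of this RNA cannot be told apart. SSR1, a subunit of a complex at the endoplasmic reticulum translocon, lies 16326 bases beyond RREB1 and fell by 0.52 ± 0.07 on the log2 scale.

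At MINK1, 9 of 16 neighbours rose and 3 fell. Those that rose include the chemokine gene CXCL16 at 1.52 ± 0.18, the transcription factor gene CAMTA2 at 1.09 ± 0.08 and the phospholipase gene PLD2 at 0.93 ± 0.13. MED11, a Mediator subunit gene in the same window, fell by 0.76 ± 0.12 on the log2 scale. At OLFML2A none of 5 tested neighbours rose and 2 fell, among them the ribosomal protein gene RPL35, by 1.08 ± 0.13 on the log2 scale. At RNF24, MAVS, an adaptor of antiviral signalling, rose by 0.68 ± 0.08. PANK2, a pantothenate kinase gene that overlaps the 3′ end of RNF24 on the opposite strand, fell by 0.27 ± 0.07 on the log2 scale (limma adjusted p = 0.0233), a call lost without replicate 2 of day 3, replicate 2 of day 5 or replicate 3 of day 5, at adjusted p between 0.0663 and 0.0889.

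**Figure D3:**
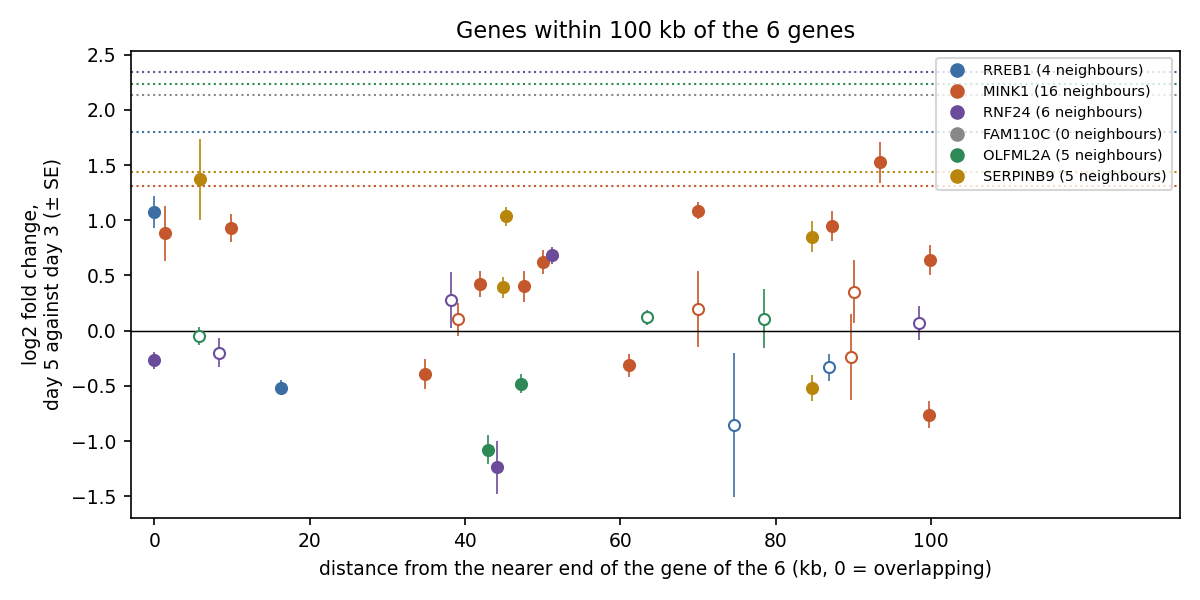
Log2 fold change (day 5 against day 3, ± SE) of the 36 tested genes within 100 kb of the 6 genes, by distance in kb, filled where the adjusted p was under 0.05. Dotted lines mark the 6 genes in the same colours, and every neighbour lies below the line of its own gene except CXCL16, at 1.52 above the 1.31 of MINK1. The 6 were selected for higher RNA in dense cells and the neighbours were not, so this order is only a description.

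The genes whose profile over the 6 libraries was most like that of each of the 6 were named by the smallest root mean square difference of centred log2 values, over 11865 genes with a mean of at least 100. With 2 days and 3 libraries a day this mainly orders genes by the size of the difference. For RREB1 the nearest was IGF1R, the insulin-like growth factor receptor and another labelled candidate, at 0.0315 on the log2 scale, and then ARHGEF37. IGF1R had 509, 529 and 527 normalized reads on day 3 and 1760, 1902 and 1836 on day 5. The nearest to FAM110C was KDM3A, a histone demethylase, at 0.0316, and then ARID3A. For RNF24 they were RIMKLA and PPP1R3B, for MINK1 AGAP1 and PTPN23, for OLFML2A GDF15 and CDCP1, and for SERPINB9 NPEPPS, at 0.0123, and RSPH3.

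The core of miRISC was measured in the same libraries. Of the 4 Argonaute and 3 TNRC6 genes, 6 rose and none fell, beside 29.3% and 27.6% of all genes tested, with a median log2 fold change of 0.81. AGO2 had 2764, 2964 and 3425 normalized reads on day 3 and 5754, 5738 and 5906 on day 5, 0.93 ± 0.10 higher on the log2 scale, and TNRC6B rose by 1.16 ± 0.08. TNRC6A, at −0.06 ± 0.08, was the 1 not called (limma adjusted p = 0.525), and it was at 0.01 when the libraries were scaled to their totals. These are RNA levels. By Western blot the paper reports TNRC6A protein strongly reduced in dense cells. It reports whole-cell AGO2 protein as similar at low and high density, with a modest average increase. That AGO2 protein was counted at densities other than those of the day 3 and day 5 libraries. AGO3, at 0.27 ± 0.09, passed narrowly (limma adjusted p = 0.0464) and was lost with any library but replicate 1 of day 3 left out, with adjusted p between 0.0563 and 0.120.

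Matches to the seeds of the 20 most abundant miRNA families were counted in each 3′UTR. Families were ranked by their share of all mature miRNA values over the 9 libraries, and the 20 together held 78.6%. The 6 3′UTRs held 58 matches, of which 12 were 8mers, 31 were 7mer-m8 and 15 were 7mer-A1. Of the 20 families, 17 matched at least 1 of the 6 genes. The families of miR-100-5p, miR-191-5p and miR-26a-5p matched none. A longer 3′UTR holds more matches, so each count was set beside genes with a 3′UTR of 0.8 to 1.25 times the length. A match to an abundant family was itself a condition of the selection, and not for those other genes. The counts are therefore a description and carry no test.

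RREB1 held matches to 8 of the 20 families, with 11 sites and 3 8mers, where genes of similar length held a median of 6 families. MINK1 held 3 families in its short 3′UTR, beside a median of 2, and 2 of its 3 sites were 8mers. RNF24 held 11 families and 19 sites, beside a median of 11, and it was the 1 gene with sites for miR-21-5p, miR-182-5p and miR-378a-3p among the 6. FAM110C held 7 families beside a median of 6. OLFML2A held 7 families and 11 sites beside a median of 9, with 3 sites for miR-125a-5p. SERPINB9 held 5 families beside a median of 6, with 2 sites each for let-7a-5p and miR-29a-3p. The counts of all 6 lay within the interquartile range of genes of similar length.

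The miR-181 match that the 6 genes shared occurs in 26.9% of the 13050 3′UTRs searched. In 3′UTRs of similar length it occurs in 14.9% for MINK1, 40.6% for FAM110C, 42.3% for SERPINB9, 44.1% for RREB1, 59.8% for OLFML2A and 68.3% for RNF24. An 8mer like that of MINK1 is found in 2.87% of 3′UTRs of its length. For the miR-16 family, 8mers are found in 8.17% of 3′UTRs the length of RREB1, 7.52% for FAM110C and 7.71% for SERPINB9. MINK1 further held an 8mer for the miR-17 and miR-93 family, at chr17:4897781-4897788 in the stretch that overlaps CHRNE.
MINK1, miR-93-5p, 8mer: ttctgaaaGCACTTTAatgattcc

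Sites of different families touched or overlapped in 4 of the 6 3′UTRs, and the 2 longest runs are shown, with all matched bases in capitals. In SERPINB9, at chr6:2888387-2888401, the miR-16 8mer and the miR-181 7mer-m8 follow each other with no base between them.
SERPINB9: ggaatagTGCTGCTATGAATGTttgtgta
In OLFML2A, at chr9:124814370-124814388, a miR-125a-5p and a miR-10a-5p match overlap and are followed by a miR-27 match.
OLFML2A: tcccgCTCAGGGTAgggCTGTGAActccc
In FAM110C and in RNF24 the miR-16 and miR-103a-3p matches overlap, since their motifs TGCTGCT and ATGCTGC share letters.

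**Figure D4:**
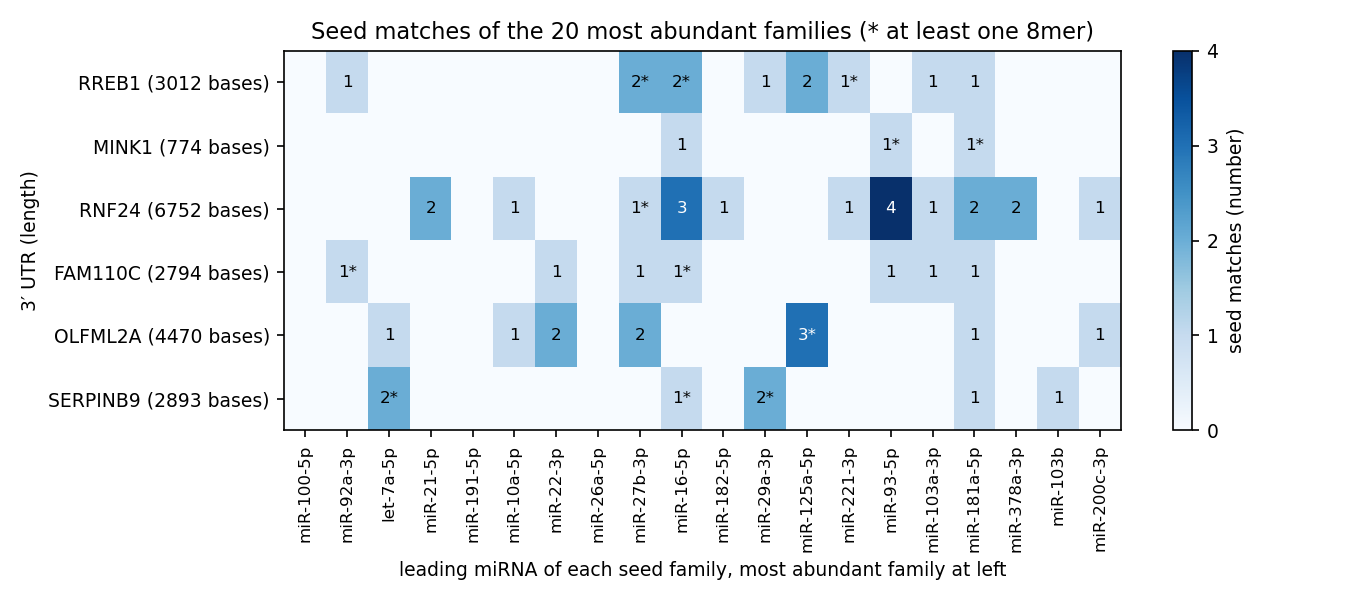
Number of seed matches in the 3′UTR of each of the 6 genes (rows, with 3′UTR length) for the 20 most abundant miRNA seed families (columns, most abundant at left), with an asterisk where at least 1 match is an 8mer. The column of miR-181a-5p is filled in all 6 rows, and RNF24, with the longest 3′UTR, has the most filled columns, at 11.

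The miRNAs themselves were then compared between days on their deposited log2 scale. On day 5 none of the 20 leading miRNAs passed (limma adjusted p under 0.05), while 14.8% of all 539 miRNAs tested did, 8.53% as higher and 6.31% as lower, and 2 of the 20 had an unadjusted p under 0.05, 1 higher and 1 lower. The library total of miRNAs is the sum of all mature miRNA values, so scaling to it gives each miRNA as a share of that sum. Scaled to library totals, 3 of the 20 passed. These were let-7a-5p and miR-21-5p, higher by 0.26 ± 0.06 and 0.37 ± 0.06, and miR-100-5p, lower at −0.54 ± 0.08, beside 13.4% of all miRNAs higher and 11.7% lower on that scale. After median centring 3 of the 20 also passed, 2 higher and 1 lower, beside 15.2% and 7.79%. The leading miRNA of each family matching the 6 genes was on day 5 within 0.38 of its day 3 level as deposited and by library totals. After median centring it was within 0.43. Sums over each family were not compared between days, and a link to the levels of the 6 genes was not tested.

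miR-181a-5p had log2 values of 13.63, 13.68 and 13.47 on day 3, of 13.71, 13.77 and 13.71 on day 5 and of 14.64, 14.68 and 14.62 on day 7. The day 5 libraries lay just above those of day 3, with a difference of 0.14 ± 0.10 that was not called (limma adjusted p = 0.434). The day 7 libraries were well above both, with a difference from day 3 of 1.05 ± 0.10 on the deposited scale (limma adjusted p = 0.000183) and of 0.55 ± 0.06 on library totals (limma adjusted p = 0.00109).

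miR-16-5p had log2 values of 15.19, 15.25 and 14.87 on day 3, of 15.03, 15.14 and 14.99 on day 5 and of 15.37, 15.34 and 15.29 on day 7. Day 5 overlapped day 3, with a difference of −0.05 ± 0.13. The day 7 difference was 0.23 ± 0.12 on the deposited scale, which did not pass. On library totals it was −0.27 ± 0.06, which did (limma adjusted p = 0.0119), so its share of all mature miRNA values was lower. miR-27b-3p was at −0.09 ± 0.13 on day 5. On day 7 it was at 0.49 ± 0.13 and passed on the deposited scale, and was at −0.01 ± 0.06 on library totals. miR-27a-3p was at −0.04 ± 0.11 on day 5 and passed as higher on day 7 on both scales, at 0.71 ± 0.11 and 0.21 ± 0.06.

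On day 7, 16 of the 20 leading miRNAs rose and none fell on the deposited scale, beside 45.3% of all 559 miRNAs tested that rose and 8.41% that fell, 53.7% in all. On library totals 6 rose and 4 fell, beside 16.6% and 40.4%. miR-93-5p rose by 0.40 ± 0.12 on the deposited scale, a call lost with any of the 3 day 7 libraries left out (limma adjusted p between 0.0527 and 0.0746), and was at −0.10 ± 0.05 on library totals, while let-7a-5p rose on both, by 0.83 ± 0.13 and 0.33 ± 0.06. miR-103b, which matched SERPINB9 alone, had exactly the values of miR-103a-3p in every library. Their hairpins lie on opposite strands of the same locus, and the deposited values do not separate them, so the level of miR-103b itself is unknown. Counts over the 20 leading miRNAs, and the share of the 20 families, hold these values under both names. Without miR-103b, SERPINB9 held 4 families. RNAseq values of the 6 genes on day 7 were not analysed here, so the miRNA levels of that day have no partner among them.

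**Figure D5:**
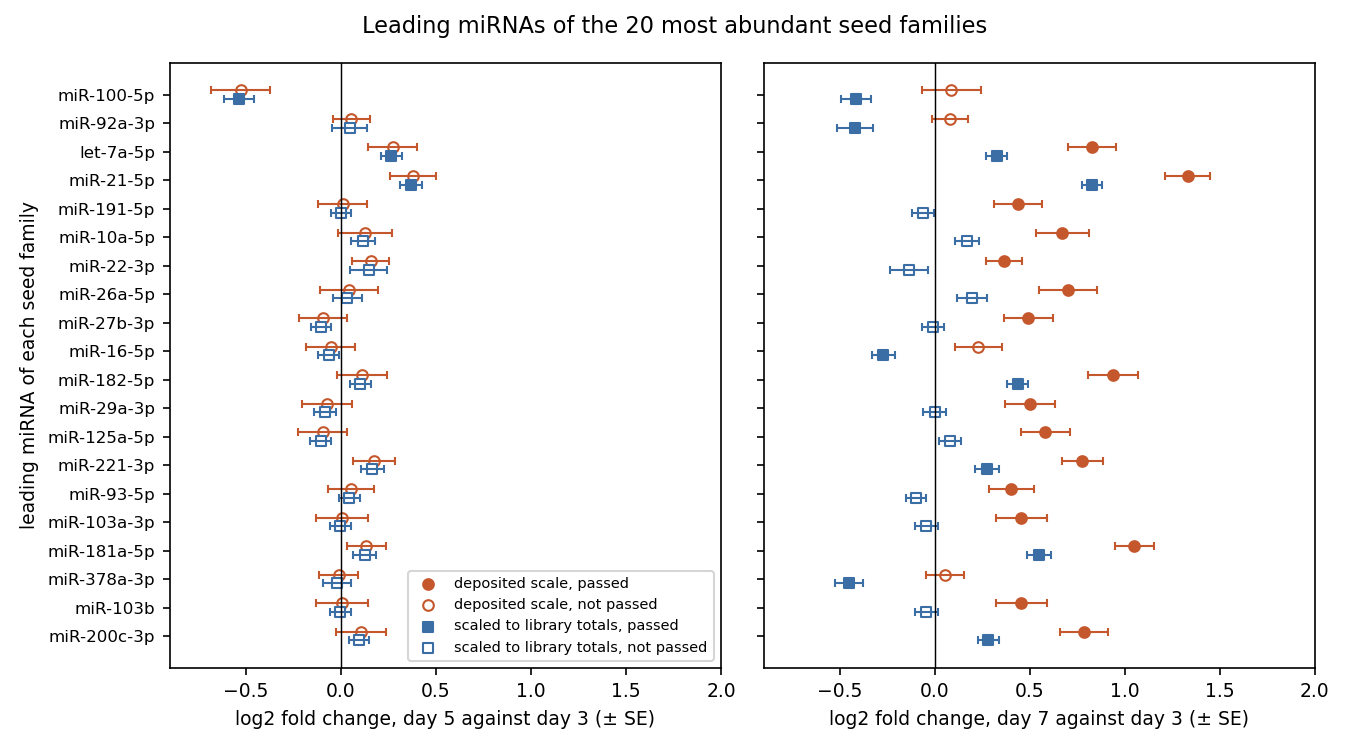
Log2 fold change (± SE, limma) of the leading miRNA of each of the 20 families, day 5 (left) and day 7 (right) against day 3, on the deposited scale (orange circles) and on library totals (blue squares), filled where the adjusted p was under 0.05. On the left no orange circle is filled and 3 blue squares are, and on the right 16 orange circles but 10 blue squares are filled.

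miR-210-3p, a miRNA induced by hypoxia, matched none of the 6 3′UTRs. It was higher by 1.74 ± 0.20 on day 5 (limma adjusted p = 0.000711) and by 2.95 ± 0.19 on day 7 on the deposited scale. miR-21-5p, which matched RNF24 with 2 7mer-A1 sites, was at 0.38 ± 0.12 on day 5 (limma adjusted p = 0.0734) and rose on day 7, by 1.33 ± 0.12 on the deposited scale and by 0.83 ± 0.05 on library totals. miR-28-5p was at 0.37 ± 0.13 on day 5 (limma adjusted p = 0.103) and rose by 0.99 ± 0.13 on day 7, both on the deposited scale.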

How the data were processed

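Whole transcriptome libraries were prepared with rRNA depletion and molecular identifiers, and by the study's methods were mapped strand-specifically to hg38 genes in CLC Genomics Workbench with TMM. The authors deposited a normalized signal per gene and library, which the text calls normalized read counts. Every value was a whole multiple of 1 read (100% within 0.01 read), so reads were recovered. The column names are those of a DESeq2-style table, and which tool made the values could not be settled. The small RNA values were deposited on a log2 scale after adapter trimming and mapping to mature and hairpin miRNAs of GRCh37, with TMM in edgeR by the methods. The exact transformation is not stated, depth is unknown, and so no counting interval is given. Per the labels, FastQC 0.11.8, MultiQC 1.7 and bcl2fastq were used. The tables also hold the authors' fold changes and p-values, which were not used. Day 7 whole transcriptome, hairpin and AGO2-eCLIP data were not used here.

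limma 3.58.1 (R 4.3.3) was fitted to log2(value + 1) of genes, and to the miRNA values as deposited, keeping features that reached 10 in 3 or more of the 6 libraries of a comparison, with Benjamini-Hochberg adjustment and a threshold of 0.05. This is a test for normalized values. edgeR 4.0.16 and DESeq2 1.42.0 on the recovered reads were alternatives, as were library totals, median centring, a pseudocount of 0.1, no filter, a replicate block and leaving out each library. The fits and the site search were tested on simulated data. Seeds came from RefSeq sequences for 1927 of 2167 miRNAs, and canonical 3′UTRs, loci and exon lengths from GENCODE release 44 on GRCh38. Deposited values divided by exon length gave levels per kilobase. Tables and figures were made with Python, pandas, numpy and matplotlib. Genes and miRNAs were named by rule: the 6 genes, the tested genes of the lists and within 100 kb, the 2 most similar profiles a gene, the leading miRNAs of the 20 families and those of the study's RT-qPCR. The members and lists were chosen with earlier results of these data known. The small RNA comparisons with day 3 share its 3 libraries. Some tested genes of the lists are counted but not reported here by name or drawn.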

Additional observations from a re-analysis of the deposited data

How the results depend on the processing

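The log2 fold changes of the 6 genes kept their direction under 11 alternatives. Scaling to library totals raised the median of all genes from 0.01 to 0.08, and moved RREB1 to 1.87 and MINK1 to 1.37, by more than the spread between their replicates. With each library left out in turn, the ranges were 1.78 to 1.84 for RREB1, 2.08 to 2.19 for FAM110C, 2.25 to 2.42 for RNF24, 1.27 to 1.33 for MINK1, 2.15 to 2.33 for OLFML2A and 1.41 to 1.48 for SERPINB9. Calls among relatives and partners stayed between 20 and 27, and among neighbours between 18 and 25, except that 15 neighbours passed with no filter on low values. With 1 library left out, calls over all genes ranged from 9780 to 11300, relatives from 20 to 25 and neighbours from 18 to 21. Among single genes, MIR181A2HG reversed to −0.036 with edgeR and ranged from −0.15 without replicate 3 of day 3 to 0.36 without replicate 2 of day 3, and TNRC6A reversed to 0.0058 on library totals.

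Replicate numbers did not pair the RNAseq libraries: the correlation of same-numbered day 3 and day 5 RNAseq deviations was −0.01, 0.03 and 0.02. For small RNA it was 0.07, 0.12 and 0.11 on day 5, where each day 3 library correlated best with its own number, and 0.11, 0.01 and 0.04 on day 7, where not every library did. With the replicate block, 10533 genes passed, with 22 relatives and 19 neighbours, and 71 miRNAs on day 5 and 302 on day 7. The calls of SMAD4, AGO3, PANK2 and PSMB6 were lost with it.

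Small RNA calls depended more on the processing. On day 5, 80 miRNAs passed, against 135 on library totals, 124 after median centring and 50 with no filter. Leaving out a library gave 36 to 118, with 47 or fewer without any library but replicate 3 of day 3. Of the 20 leading miRNAs, 3 passed on library totals, 3 after median centring and 2 with all 9 libraries in 1 fit, and 0 to 1 with a library left out. On day 7, 10 of the 20 passed on library totals and 9 with no filter, and 11 to 16 with a library left out, where 216 to 296 of all miRNAs passed against 300.0. Library totals reversed miR-100-5p to −0.41, miR-16-5p to −0.27, miR-27b-3p to −0.0080 and miR-93-5p to −0.10 on day 7. The summed mature values were larger on day 7, so this scale lowered every miRNA of that day by the same amount. Median centring reversed miR-100-5p to −0.054 on day 7 and miR-27a-3p to 0.011 on day 5. With a library left out, miR-100-5p ranged from −0.079 to 0.20 on day 7. On day 5, miR-16-5p ranged from −0.17 to 0.018, miR-27a-3p from −0.11 to 0.014 and miR-93-5p from −0.050 to 0.12, with the ends set by leaving out replicate 3 or 2 of day 3. The cause was not tested.

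Counting 8mers alone left 3 families for RREB1, 2 for FAM110C, 1 for RNF24, 1 for OLFML2A and 3 for SERPINB9. The ranking of day 7, the longest 3′UTR and leaving out miR-103b, an alternative chosen after seeing the data, changed no count by over 1.5 times. Low reads limit the precision of OLFML2A on day 3 and of lower genes such as FAM110D, OLFML2B and SERPINB9P1.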

Other observations

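Hairpins of matching miRNA families lie near OLFML2A and RNF24. On GRCh38, MIR181A2 is annotated 84582 bases and MIR181B2 83335 bases from OLFML2A, on the same strand, and their host RNA MIR181A2HG had 17.4 ± 6.41 normalized reads on day 3 and 18.1 ± 2.54 on day 5 (SD, n = 3). The difference of 0.11 ± 0.27 on the log2 scale was not called (limma adjusted p = 0.748). MIR103A2 is annotated 9738 bases from RNF24, on the opposite strand, and MIR103B2 9746 bases from it on the same strand. MIR181A2, MIR181B2 and MIR103A2 were below the filter on low values, and MIR103B2 was not analysed here.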
